A study of Homo sapiens with 8 samples.

Results

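The replacement histone genes are the 9 genes H1-10, H2AX, H2AZ1, H2AZ2, H2AJ, MACROH2A1, MACROH2A2, H3-3A and H3-3B, taken by gene symbol, with older names such as H2AFZ and H3F3B counted, from 43627 genes in the deposited tables. All 9 were found and all 9 passed the filter on low counts. The rule that names them uses no measured value, but the members were chosen with earlier results of these data known. RNA was measured by sequencing in MDA-MB-231 cells, an established human line of mesenchymal triple-negative breast cancer. The 4 groups were cells given EMD37 at 0.5 µM for 12 h, vehicle (DMSO) for 12 h, EMD37 at 0.5 µM for 24 h and vehicle for 24 h. EMD37, which the series title links to stress of the endoplasmic reticulum, is known here by its code name only. All cells were grown in DMEM with serum, and each group had 2 libraries, A and B. The labels do not say whether A and B were separate cultures, so a p-value here reflects only how far the libraries of a group differ, and all values describe 1 cell line.

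Most histones are made in S phase from clustered genes whose mRNAs end in a stem-loop instead of a poly(A) tail. Replacement histones are made outside S phase as well, mostly from single genes with polyadenylated mRNAs, and enter chromatin through their own chaperones. H2A.X is phosphorylated around DNA breaks, H2A.Z marks promoters and regulatory regions, macroH2A carries a large extra domain and is linked to repressed chromatin, and H3.3 is deposited at active genes and at repeats. H2AX is intermediate, since its single gene yields both a stem-loop mRNA and a polyadenylated one.

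The libraries held 8994977 to 11437813 counted reads. Of 7 markers of MDA-MB-231 cells, 6 averaged above 1 CPM (edgeR's CPM, read counts scaled to a common library size after TMM), with SPARC under it, while ESR1, PGR and ERBB2 stayed between 0.662 and 4.86 CPM in the group means. Of 7 leukocyte markers none averaged above 1 CPM, and LYZ was at 0 in every library. Of 7 fibroblast markers 1, PDGFRB, averaged above 1 CPM, at 2.25 CPM. Of 10 luminal markers 6 did, led by KRT18 at 294, XBP1 at 254 and KRT8 at 144 CPM, while EPCAM averaged 0.143 CPM. The luminal markers summed to 746 CPM in EMD37 cells and 656 CPM in vehicle cells at 24 h, and to 829 and 584 CPM at 12 h. XBP1 alone had 332 CPM in EMD37 cells and 140 CPM in vehicle cells at 24 h, and 381 and 164 CPM at 12 h. KRT18 and KRT8 were lower in EMD37 cells at 24 h, at 259 against 331 CPM and 142 against 172 CPM. At 12 h these keratins were slightly higher, at 299 against 288 CPM and 139 against 122 CPM. The sums thus do not describe the luminal markers as a set, and their part in the results was not tested. The vehicle libraries of 24 h stood further apart than other pairs by base composition: over 1675 genes with transcripts of at least 60% GC, the median log2 difference of B minus A was 0.495, against -0.195 to 0.189 in the other 3 groups. H1-10 and H2AX have such transcripts, with 68.6% and 66.4% GC in the longest one, and the other 7 members range from 40.5% to 53.3%.

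The upstream sequences shown here are those of H2AX and H2AZ1, which fell at 24 h, of MACROH2A2, whose higher value at 24 h rests on few reads, and of 2 abundant members that did not pass the test, H2AZ2 and H3-3B. They are the bases before the RefSeq start (GRCh38.p14), clipped so that no annotated exon of the gene is included, and run 5′ to 3′ on the gene's strand. Capitals mark CCAAT or its reverse complement ATTGG, the element bound by the factor NF-Y in many histone and cell cycle promoters.

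H2AX, chr11:119095468-119095715, minus strand: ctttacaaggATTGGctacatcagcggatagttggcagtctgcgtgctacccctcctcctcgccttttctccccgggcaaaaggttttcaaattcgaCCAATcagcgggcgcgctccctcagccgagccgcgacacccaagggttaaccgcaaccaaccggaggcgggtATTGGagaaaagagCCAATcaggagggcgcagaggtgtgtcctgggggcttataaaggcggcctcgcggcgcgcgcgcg

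H2AZ1, chr4:99950389-99950525, minus strand: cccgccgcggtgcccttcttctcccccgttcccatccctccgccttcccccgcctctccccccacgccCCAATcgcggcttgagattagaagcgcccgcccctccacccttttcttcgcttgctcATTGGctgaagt

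MACROH2A2, chr10:70052596-70052795, plus strand: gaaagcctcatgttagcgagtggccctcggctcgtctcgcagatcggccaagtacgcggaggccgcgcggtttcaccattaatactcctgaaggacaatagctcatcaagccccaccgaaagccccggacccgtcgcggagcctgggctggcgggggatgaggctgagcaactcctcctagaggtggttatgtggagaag

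H2AZ2, chr7:44848088-44848337, minus strand: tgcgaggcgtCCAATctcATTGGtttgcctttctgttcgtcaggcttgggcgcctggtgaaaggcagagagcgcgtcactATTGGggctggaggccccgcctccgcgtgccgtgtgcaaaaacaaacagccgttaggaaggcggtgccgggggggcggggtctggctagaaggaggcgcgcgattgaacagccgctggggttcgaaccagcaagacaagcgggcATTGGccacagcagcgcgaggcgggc

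H3-3B, chr17:75779781-75780029, minus strand: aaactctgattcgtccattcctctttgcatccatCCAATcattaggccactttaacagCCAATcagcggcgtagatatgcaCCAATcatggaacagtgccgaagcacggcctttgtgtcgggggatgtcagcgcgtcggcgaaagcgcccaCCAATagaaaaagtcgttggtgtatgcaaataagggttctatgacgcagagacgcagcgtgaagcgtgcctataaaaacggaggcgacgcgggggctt

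Matches to CCAAT on either strand were counted in the 250 bases upstream of each RefSeq start, 13 windows for the 9 genes. H2AX, H2AZ2 and H3-3B held 4 matches each, and H2AZ1 and H2AJ held 3 each. In H2AX the matches ended 236, 149, 77 and 63 bases before the start, and in H2AZ1 178, 121 and 76 bases before it, the last of them inside an annotated exon and so outside the sequence printed. MACROH2A1 held 2 matches at 1 of its starts, H3-3A held 1 at each of 3 of its 4 starts, and H1-10 and MACROH2A2 held none. At least 1 match was present in 32.0% of 35116 promoter windows, and 3 or more in 2.93%. Of the 5 genes with 3 or more matches, H2AX and H2AZ1 fell at 24 h, as described below, and H2AZ2, H2AJ and H3-3B did not pass the test. Of the 4 genes with fewer matches none fell by that test. A relation between matches and response was not tested. TTTGAA or its complement TTCAAA occurred in the H2AX window and in 13.3% of all windows. On either strand, TTTAAA occurred in a MACROH2A1 window, GCGGGAA in an H3-3A window and TTGGCGC in the H1-10 window. TGACG occurred in windows of H2AZ2, MACROH2A1 and H3-3B. Of all windows, 11.3% held TTTAAA, 5.52% GCGGGAA, 2.56% TTGGCGC and 21.2% TGACG. These matches describe letters and not bound sites.

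**Figure D1:**
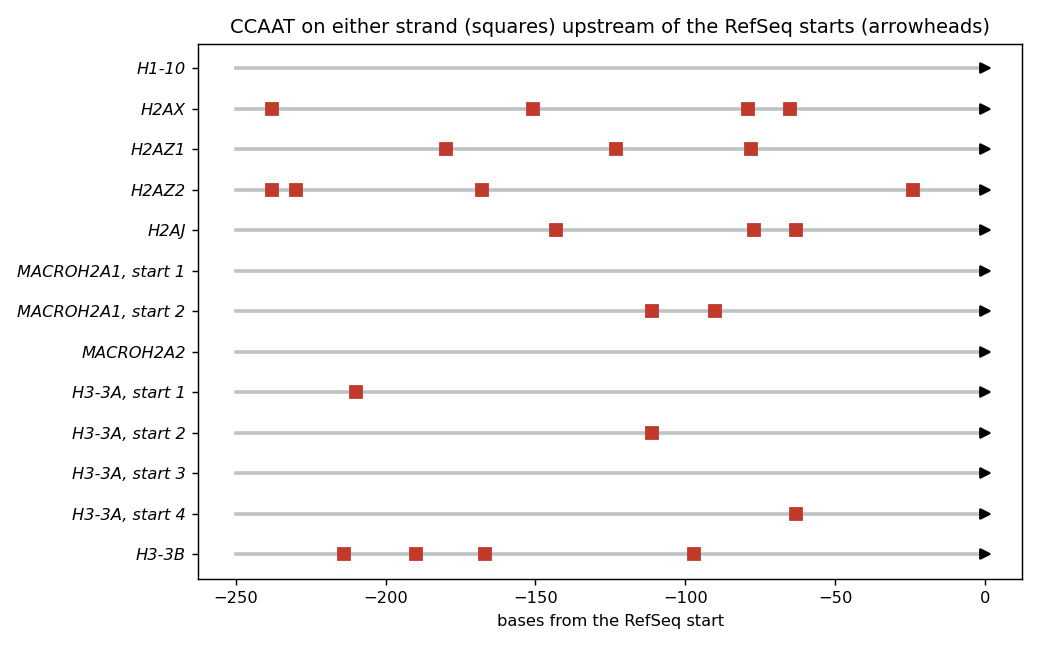
Positions of CCAAT on either strand (red squares) in the 250 bases upstream of each RefSeq start (arrowheads), 1 line per start, with distance from the start in bases on the x axis. H2AX, H2AZ2 and H3-3B show 4 squares each, and H1-10 and MACROH2A2 show none.

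Levels differed widely among the members. H3-3B, one of a pair of genes that encode the same H3.3 protein, took 49.5% to 56.1% of the reads of the 9 genes in every library, and the 9 together took 0.191% to 0.278% of all reads. Per kilobase of annotated exon, H2AZ1 was highest at 283 ± 62.3 RPKM (reads per kilobase of exon, scaled to the counted reads of the library) and H3-3B next at 228 ± 20.6 (mean ± SD over 8 libraries, all groups together). The ranges of these neighbours overlapped, at 195 to 369 for H2AZ1 and 197 to 257 for H3-3B. H2AZ2 averaged 60.1, H2AX 29.5, MACROH2A1 10.9, H3-3A 8.66, H2AJ 7.45 and H1-10 6.29 RPKM. MACROH2A2 was lowest at 0.520. Annotated exons include long alternative ends, and with the median length of the coding transcripts H3-3B stood first at 2060 and H2AZ1 second at 666, with H2AZ2 at 434 and MACROH2A1 at 104 RPKM. H3-3A had 2249 reads in all, and 11.7% of its 50-base windows occur unchanged in 12 other genes, mostly H3 pseudogenes, of which H3P6 had 130 reads. How reads that match several genes were counted is not given in the sources used here, so the level of H3-3A, and its place in the order, is uncertain.

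**Figure D2:**
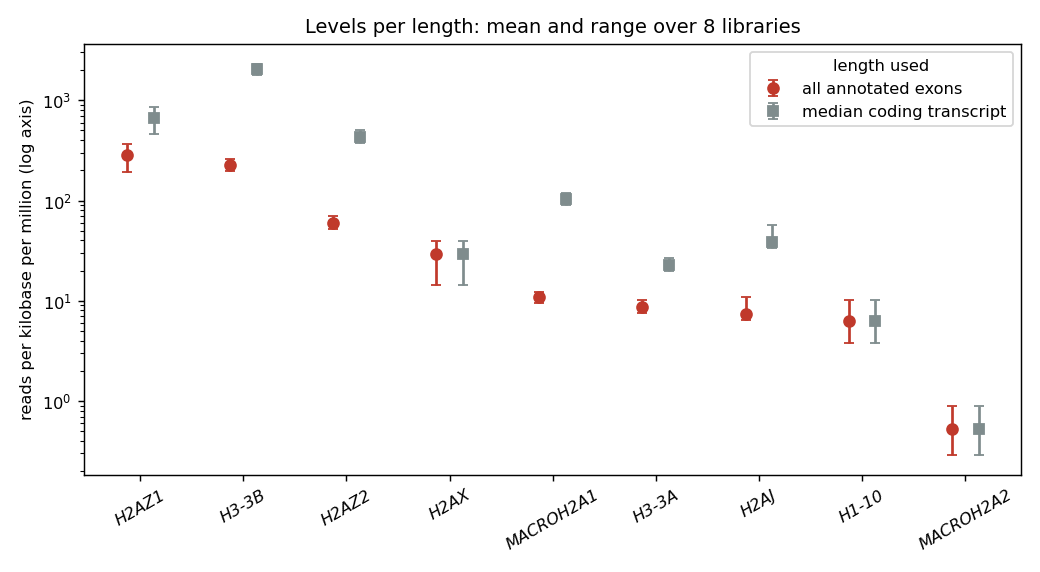
RPKM (log axis) for each member, as the mean with the lowest and highest of 8 libraries. Red circles use the length of all annotated exons and grey squares the median coding transcript. H3-3B lies at 228 by the first and 2060 by the second, and H2AX at 29.5 by both.

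The comparison of EMD37 with vehicle at 24 h asks how the cells responded by the later time. H2AX and H2AZ1 fell, and 6 of the other members did not pass the test (edgeR's quasi-likelihood test on counts, Benjamini-Hochberg adjusted p below 0.05 over all genes tested). MACROH2A2 passed it as higher, on 6 to 17 reads per library. The EMD37 libraries of 24 h, in which MACROH2A2 was high, counted towards passing the filter on low counts. The call was lost with DESeq2 and without any 1 of the 4 libraries of 24 h. Across 14850 genes of the count table, 40.7% passed at 24 h, 19.6% higher and 21.1% lower, and the 2 of 9 members that fell are near the share of all genes that did. In the joined table with recovered reads, which H2AJ and some of the related genes below rest on, 37.8% of 17863 genes passed, 19.3% higher and 18.5% lower. The groups did not overlap for 5 members, 4 of them lower in both EMD37 libraries, as were 35.4% of all genes, and 1 higher, as were 31.4%. The median log2 fold change of the 9 was -0.09, and that of all genes -0.03. In bulk RNA, fewer cells in a given state and less RNA per cell cannot be told apart.

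H2AX (ENSG00000188486, chr11:119093854-119095467, minus strand, GRCh38, a single exon) had 31.7 and 24.7 CPM in EMD37 libraries A and B at 24 h, against 52.2 and 62.2 CPM in vehicle libraries A and B. Both EMD37 libraries lay below both vehicle libraries. The level was 0.493 times that of vehicle, with a log2 fold change of -1.02 ± 0.14 (SE), a 95% interval of -1.31 to -0.73 and an adjusted p of 1.69e-05. At 12 h H2AX had 52.8 and 48.5 CPM in EMD37 cells, against 48.5 and 58.6 CPM in vehicle cells, and the groups overlapped. Its log2 fold change at 12 h was -0.08 (95% interval -0.36 to 0.19, adjusted p = 0.771). The effect at 24 h was lower than that at 12 h by a log2 difference of -0.94 ± 0.19 (adjusted p = 0.00287), and H2AX was the 1 member of 9 that passed this test of the difference, which 15.9% of all genes passed, 7.94% with a lower effect at 24 h (13.7% in either direction in the joined table). With the composition of the transcripts entered as an offset per library, an alternative chosen after seeing the data, the log2 fold change at 24 h was -1.03 with an adjusted p of 8.46e-08.

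H2AZ1 (ENSG00000164032, chr4:99948086-99950388, minus strand) encodes the major form of H2A.Z. It had 454 and 509 CPM in EMD37 libraries at 24 h, against 771 and 581 CPM in vehicle libraries. The groups did not overlap, although vehicle library B lay closer to the EMD37 libraries than to vehicle library A. The log2 fold change was -0.49 ± 0.11, with a 95% interval of -0.72 to -0.26 and an adjusted p of 0.00195, or 0.712 times vehicle. Without vehicle library A of 24 h it was -0.24, still past the threshold with an adjusted p of 0.0467. At 12 h H2AZ1 had 639 and 659 CPM in EMD37 cells, against 847 and 749 CPM in vehicle cells, again with both EMD37 libraries lower. The log2 fold change at 12 h was -0.30 ± 0.11 with an adjusted p of 0.110. The 24 h and 12 h effects of H2AZ1 differed by -0.19 (95% interval -0.52 to 0.14, adjusted p = 0.448).

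H2AZ2 (ENSG00000105968, chr7:44826791-44848083, minus strand) encodes the second H2A.Z protein, which differs from the first at a few residues. It had 250 and 262 CPM in EMD37 libraries at 24 h, against 282 and 260 CPM in vehicle libraries, and the groups overlapped. Its log2 fold change was -0.08 at both times, with 95% intervals of -0.25 to 0.09 at 24 h and -0.25 to 0.09 at 12 h. The ratio of H2AZ1 to H2AZ2 reads was 1.81 and 1.94 in EMD37 libraries at 24 h, against 2.73 and 2.23 in vehicle libraries. At 12 h it was 2.07 and 2.27 in EMD37 libraries, against 2.53 and 2.51 in vehicle libraries. The ratio was thus lower in both EMD37 libraries at both times; the ratio itself was not tested.

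**Figure D3:**
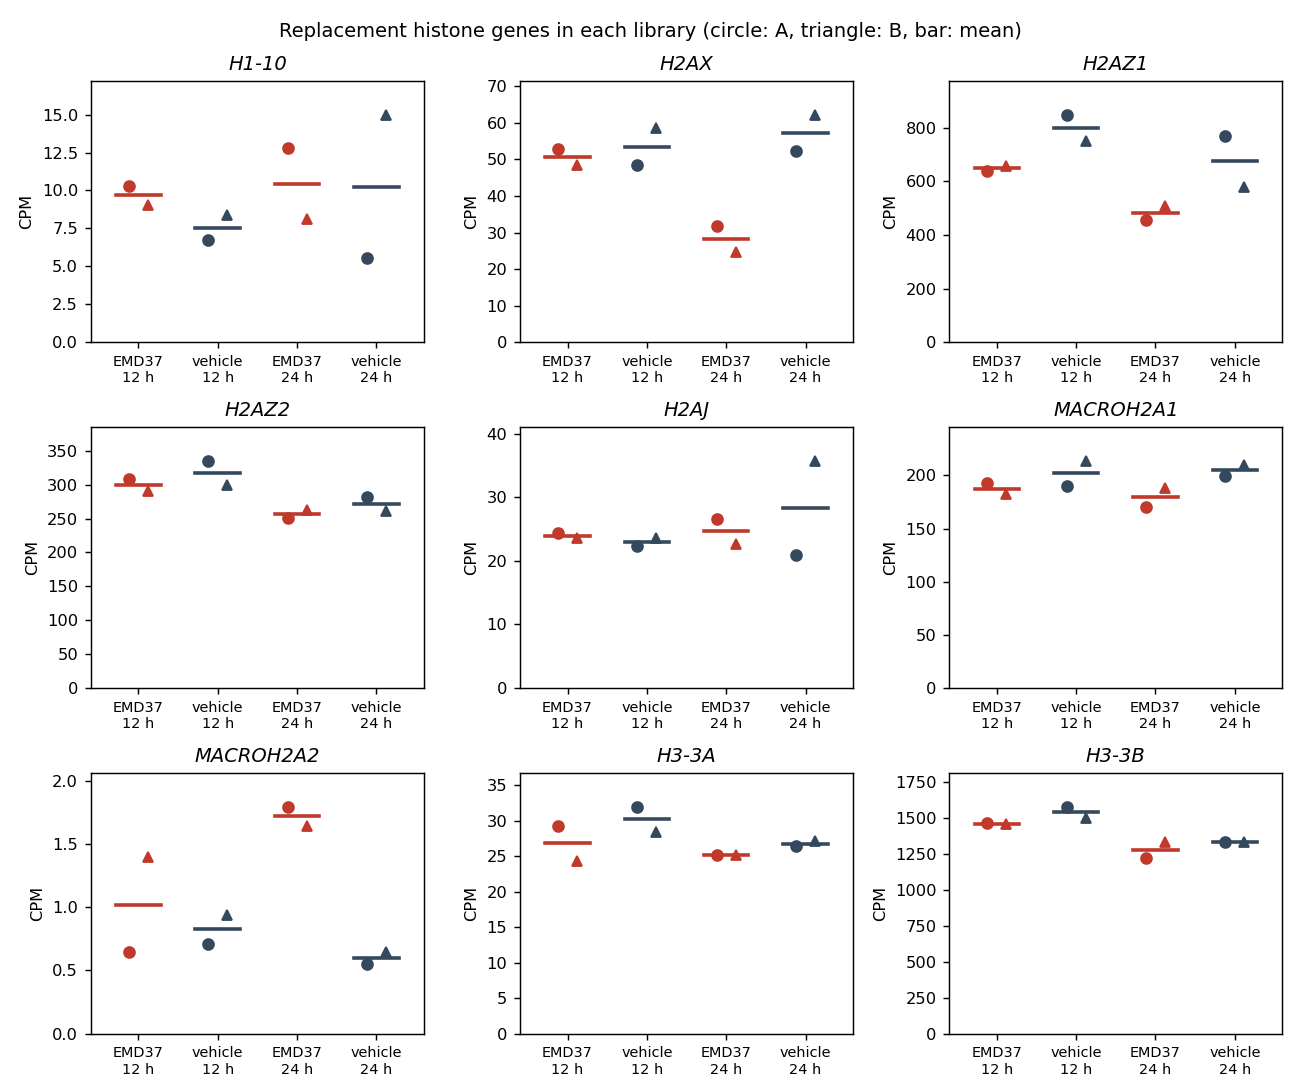
CPM of each member in every library, with EMD37 in red and vehicle in dark grey, circles for library A, triangles for B and bars for group means. H2AX shows 2 EMD37 libraries at 24 h under 32 CPM and all other libraries above 48 CPM, and the 24 h vehicle libraries of H1-10 lie at 5.55 and 15.0 CPM.

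MACROH2A2 (ENSG00000099284, chr10:70052796-70112280, plus strand) encodes the second macroH2A protein and was the least abundant member. It had 1.80 and 1.64 CPM in EMD37 libraries at 24 h, against 0.555 and 0.646 CPM in vehicle libraries, from 17 and 17 reads in EMD37 libraries, against 6 and 6 reads in vehicle libraries. Both EMD37 libraries were higher, by a log2 fold change of 1.50 ± 0.50 (95% interval 0.45 to 2.55, adjusted p = 0.0234), or 2.83 times. MACROH2A2 had at least 10 reads only in these EMD37 libraries and in library B of each 12 h group, with 14 reads for EMD37 and 11 for vehicle. The group in which it was high thus counted towards passing the filter on low counts. Without that filter the adjusted p of edgeR's test was 0.0155. The call rests on few reads: with DESeq2 the adjusted p was 0.122, and without any 1 of the 4 libraries of 24 h it lay between 0.0565 and 0.100. At 12 h MACROH2A2 had 0.645 and 1.39 CPM in EMD37 libraries, against 0.711 and 0.941 CPM in vehicle libraries, and the groups overlapped. The effects at 24 h and 12 h differed by 1.23 (95% interval -0.28 to 2.75, adjusted p = 0.272).

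MACROH2A1 (ENSG00000113648, chr5:135333900-135399914, minus strand), the main macroH2A gene, had 170 and 189 CPM in EMD37 libraries at 24 h, against 200 and 210 CPM in vehicle libraries. Both EMD37 libraries were lower, with a log2 fold change of -0.19 ± 0.08 (95% interval -0.37 to -0.02) and an adjusted p of 0.0734. At 12 h it had 193 and 182 CPM in EMD37 libraries, against 190 and 214 CPM in vehicle libraries, with overlap and a log2 fold change of -0.11. The library kit does not mark strand, so reads of the antisense gene PITX1-AS1, which overlaps MACROH2A1 exons and had 215 reads in all beside 15968 for MACROH2A1, cannot be told apart where the genes overlap. The 2 macroH2A genes had log2 fold changes of opposite sign at 24 h, MACROH2A1 without passing the test and MACROH2A2 on few reads. The difference between them was not tested.

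Neither H3.3 gene passed the test at 24 h. H3-3B (ENSG00000132475, chr17:75776434-75785893, minus strand) had 1224 and 1332 CPM in EMD37 libraries at 24 h, against 1334 and 1329 CPM in vehicle libraries. The groups overlapped, and the log2 fold change was -0.06 with a 95% interval of -0.22 to 0.10. H3-3A (ENSG00000163041, chr1:226061851-226072001, plus strand) had 25.2 and 25.2 CPM in EMD37 libraries at 24 h, against 26.5 and 27.1 CPM in vehicle libraries. Both EMD37 libraries were lower, by less than the standard error of the fit, with a log2 fold change of -0.09 ± 0.13 (95% interval -0.36 to 0.19). At 12 h H3-3B had 1461 and 1459 CPM in EMD37 libraries, against 1577 and 1499 CPM in vehicle libraries, and H3-3A had 29.3 and 24.4 CPM in EMD37 libraries, against 32.0 and 28.5 CPM in vehicle libraries, with log2 fold changes of -0.08 and -0.17. The ratio of H3-3B to H3-3A reads lay between 48.5 and 59.8 in the 8 libraries.

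H1-10 (ENSG00000184897, chr3:129314771-129316277, minus strand) encodes a linker histone variant, and H2AJ (ENSG00000246705, chr12:14774383-14778002, plus strand) an H2A variant linked to senescent cells. H1-10 had 12.8 and 8.11 CPM in EMD37 libraries at 24 h, against 5.55 and 15.0 CPM in vehicle libraries, so that the vehicle pair spanned the EMD37 pair. H2AJ had 26.6 and 22.7 CPM in EMD37 libraries at 24 h, against 20.9 and 35.8 CPM in vehicle libraries, again inside the vehicle span. The log2 fold changes were 0.04 for H1-10 (95% interval -0.65 to 0.73) and -0.17 for H2AJ (95% interval -0.54 to 0.20). The outcome for both rested on which vehicle library of 24 h was kept: H1-10 stood at 0.90 (adjusted p = 0.00161) without library B and at -0.50 without library A. H2AJ stood at -0.54 (adjusted p = 0.0015) without library A and at 0.23 without library B. At 12 h H1-10 had 10.3 and 9.06 CPM in EMD37 libraries, against 6.71 and 8.38 CPM in vehicle libraries, with a log2 fold change of 0.36 (95% interval -0.35 to 1.06). H2AJ had 24.4 and 23.6 CPM in EMD37 libraries at 12 h, against 22.4 and 23.7 CPM in vehicle libraries, with a log2 fold change of 0.06. An antisense gene, H1-10-AS1, overlaps H1-10 and had 138 reads in all beside 771 for H1-10.

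**Figure D4:**
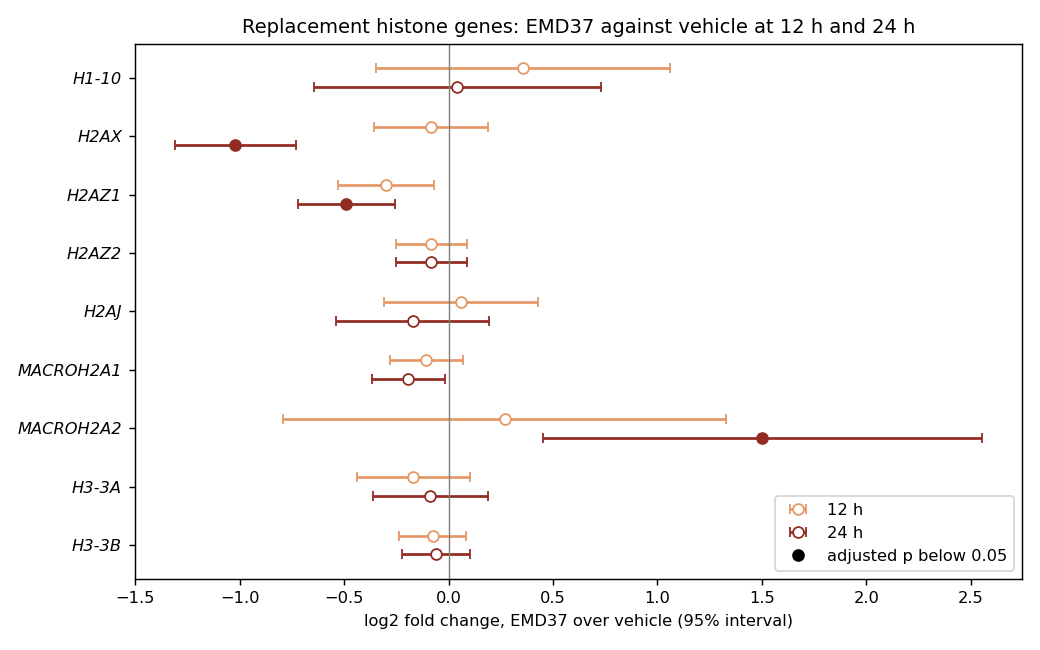
Log2 fold change of EMD37 over vehicle for each member at 12 h (light) and 24 h (dark) with 95% intervals, filled where the adjusted p is below 0.05. H2AX at -1.02, H2AZ1 at -0.49 and MACROH2A2 at 1.50 are the filled points, all at 24 h.

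At 12 h none of the 9 members passed edgeR's test, and 1, H2AZ1, had an unadjusted p below 0.05, a share not given here for all genes. DESeq2 called none of the 9 at 12 h either. Across all genes 8.7% passed at 12 h, and 7.53% in the joined table. The median log2 fold change of the members was -0.08, and that of all genes -0.01. The groups did not overlap for 3 members: H2AZ1 and H3-3B were lower in both EMD37 libraries, as were 28.4% of all genes, and H1-10 was higher in both, as were 26.5% of all genes.

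Culture time alone was compared in vehicle cells. None of the 9 members passed edgeR's test between vehicle at 24 h and vehicle at 12 h, and DESeq2 called none, while 5.99% of all genes passed, and 5.09% in the joined table. For 3 members the unadjusted p was below 0.05, a share not given here for all genes, each with a negative log2 fold change. These were H2AZ1 at -0.24 (adjusted p = 0.199), H2AZ2 at -0.22 (adjusted p = 0.107) and H3-3B at -0.21 (adjusted p = 0.114). H3-3B averaged 1332 ± 3.58 CPM in vehicle cells at 24 h and 1538 ± 55.2 CPM in vehicle cells at 12 h (SD, n = 2 each), and H2AZ2 averaged 271 ± 15.5 CPM at 24 h and 317 ± 25.6 CPM at 12 h. The vehicle libraries of 24 h lay below those of 12 h for 4 of the 9 members, as they did for 25.5% of all genes. These were H2AZ2, H3-3B, H3-3A and MACROH2A2, the last on few reads. H2AX averaged 57.2 ± 7.05 CPM in vehicle cells at 24 h and 53.5 ± 7.15 CPM in vehicle cells at 12 h, with overlap. This comparison and both of EMD37 share their vehicle libraries.

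Chaperones and partners of the replacement histones were listed by role. Of 9 tested genes for H3.3 deposition, 3 fell and 2 rose at 24 h, with a median log2 fold change of -0.16. NASP, a chaperone of H3 and H4, fell with a log2 fold change of -0.64, DEK, an H3.3 chaperone, with -0.84, and UBN1, a subunit of the HIRA complex, with -0.31, while its paralogue UBN2 rose by 0.55. Of 19 tested genes for H2A.Z deposition and removal, 4 fell and 3 rose, with a median of -0.05. ANP32E, which removes H2A.Z, fell with -0.24, ACTL6A, an actin-related subunit of several remodelling complexes, with -0.44, and RUVBL2, an ATPase of the SRCAP and TIP60 complexes, with -0.26, and ACTR6, a subunit of SRCAP, rose by 0.47. Of 10 tested genes of H2AX signalling, 2 fell and 1 rose, with a median of -0.15: ATR, a kinase that phosphorylates H2A.X at stalled forks, fell with -0.59, RNF8, a ubiquitin ligase recruited to breaks, with -0.39, and TP53BP1 rose by 0.28. Of 4 tested genes listed as linked to macroH2A, 3 fell, with a median of -0.82. HELLS, a chromatin remodeller, fell with -1.22, UHRF1, a factor of DNA methylation upkeep, with -1.13, and PARP1 with -0.52. The link of these genes to macroH2A was not tested here. The median over all genes was -0.03, and these counts stand beside the 40.7% of all genes that passed, 19.6% higher and 21.1% lower.

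Genes tied to DNA replication were given as a further background. Of 13 tested replication-coupled chaperones, 9 fell and 1 rose at 24 h, with a median log2 fold change of -0.44. ASF1B, a chaperone of new H3 and H4, averaged 30.9 ± 2.25 CPM in EMD37 cells and 79.0 ± 5.44 CPM in vehicle cells (SD, n = 2 each), with a log2 fold change of -1.35 and an adjusted p of 1.41e-08. The subunits of the chromatin assembly factor CAF-1 fell as well, CHAF1B with -1.19 and CHAF1A with -0.64, and so did MMS22L, which handles new histones at forks, with -0.85. Of 12 tested genes that process stem-loop histone mRNAs, 6 fell, with a median of -0.27, among them LSM10 with -0.94, CASP8AP2 with -0.65 and LSM11 with -0.63. Of 48 replication-dependent histone genes found here, 36 were tested, 14 of them on recovered reads, and 31 fell at 24 h with a median of -1.41. Their summed level was 5415 and 4286 CPM in EMD37 libraries at 24 h, against 9196 and 12620 CPM in vehicle libraries, and 9398 and 9835 CPM in EMD37 libraries at 12 h, against 8092 and 8610 CPM in vehicle libraries. H2AX at -1.02 was thus the member nearest to that median. The standard protocol of the library kit captures polyadenylated RNA, and replication-dependent histone mRNAs mostly lack a poly(A) tail, so that their summed level is not the cell's content. The stem-loop mRNA of H2AX may be missed in the same way, so the level and fold change of H2AX may not describe both of its forms. Among other histone variants the centromere histone CENPA fell at 24 h with -0.66.

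**Figure D5:**
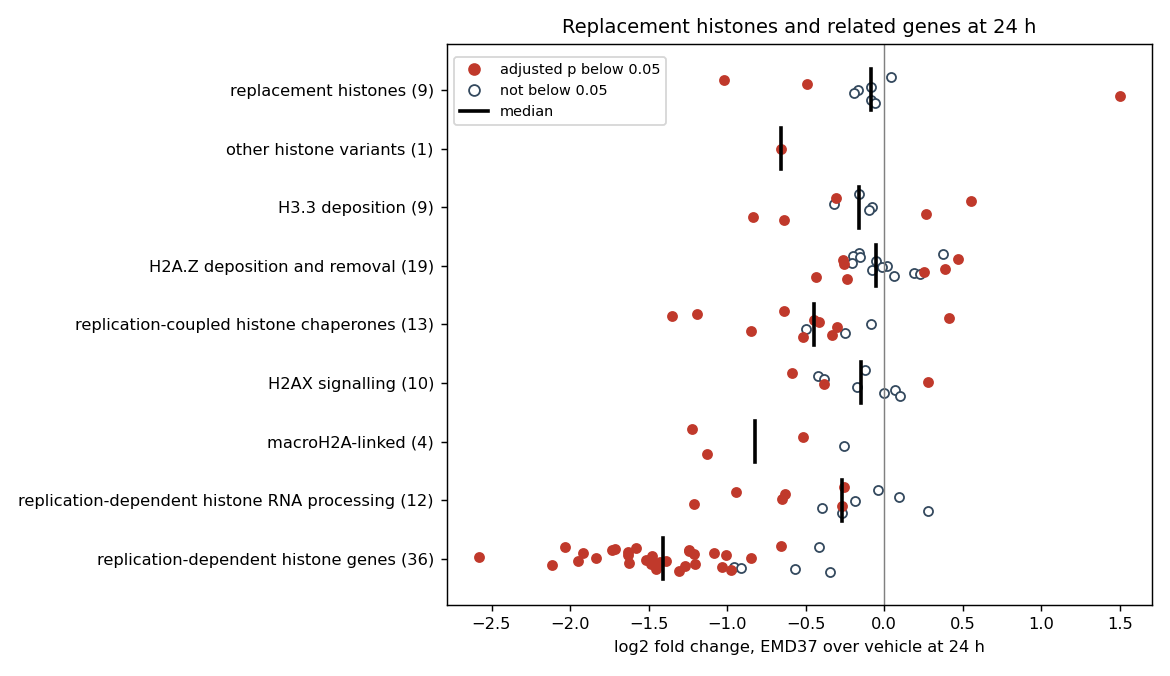
Log2 fold change of EMD37 over vehicle at 24 h for the 9 replacement histones and 8 lists of related genes, 1 point per tested gene, filled red where the adjusted p is below 0.05, with the median of each list as a black bar and the number tested in brackets. The replacement histones have their median at -0.09, and the replication-dependent genes at -1.41.

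By Pearson's r of log2 CPM over the 8 libraries, among 8990 genes of at least 10 CPM, the genes with patterns most like H2AX were SERPINB6 (0.988), FARP2 (0.987) and IL17RD (0.986). Those most like H2AZ1 were MTF2 (0.996), NSF (0.989) and MRPL35 (0.989), and those most like H3-3B were LPGAT1 (0.989), SFPQ (0.985) and B3GNT2 (0.977). For H2AZ2 the nearest was PAFAH1B1 (0.986), for H2AJ RAB11FIP3 (0.980), for MACROH2A2 GPN2 (0.975), for H1-10 FBXW5 (0.972), for MACROH2A1 MLX (0.937) and for H3-3A CPD (0.921). The libraries fall into 4 groups, and these values describe likeness between group patterns and between single libraries, and carry no p. For H1-10 and H2AJ the lowest and highest libraries were vehicle A and B of 24 h. They had 5.55 and 15.0 CPM for H1-10 and 20.9 and 35.8 CPM for H2AJ, so the values of these genes reflect that pair.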

How the data were processed

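RNA was taken from MDA-MB-231 cells and libraries were made with the TruSeq V2 RNA-Seq kit, per the labels' protocols. FastQC, STAR and DESeq2 with the build hg38 are named in the submitters' processing notes, and neither versions nor counting settings are given there. The authors deposited a table of raw read counts per gene and a table of normalized counts, a signal of counts divided by a size factor per library. The count table held 36715 genes and lacked 6912 that the normalized table lists, H2AJ among them. For these, the normalized value times the size factor gave whole reads (55296 of 55296 values within 0.01), which were joined to the counts, and genes absent from the count table were tested in that joined table of 17863 tested genes. No column belonged to other samples, and no reads fell on entries without a gene.

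Counts were fitted with edgeR 4.0.16 in R 4.3.3: TMM scaling, filterByExpr with a minimum count of 10, 1 mean per group over all 8 libraries, and the quasi-likelihood F-test, with Benjamini-Hochberg adjustment over all 14850 genes of the count table. The code recovered known changes in simulated data, planted in the EMD37 group of 24 h with the same spread for every gene. That check used genes above the level of MACROH2A2, and did not cover the interaction or differences between libraries by GC content. CPM values of all members use the effective library sizes of the count table. Replicate libraries correlated at 0.988 to 0.992. No label says that the letters A and B pair the samples. Deviations from the group means correlated between -0.162 and 0.161 across groups. With 2 libraries per group this cannot decide whether a letter marks a shared culture or day. Exons and lengths came from GENCODE 29 on GRCh38, and promoters from RefSeq on GRCh38.p14. Alternatives were DESeq2 1.42.0, RLE and upper-quartile scaling, no filter, the joined table, only the libraries compared, a replicate block, each library left out, and, chosen after seeing the data, GC offsets in 20 bins and coding transcript length.

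Within each list of related genes, up to 4 with the smallest p at 24 h were named, and the 3 most alike genes were found for each member. A listed gene is not reported here. The members and lists were chosen with earlier results of these data known.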

Additional observations from a re-analysis of the deposited data

Results flagged for a closer look

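The effect of EMD37 differed between 24 h and 12 h, by edgeR's interaction test over all genes, for 1 member and 14 named genes of the related lists, which were chosen for their small p at 24 h. H2AX had a difference, 24 h effect minus 12 h effect, of -0.94 on the log2 scale (adjusted p = 0.00287), with both EMD37 libraries below both vehicle libraries at 24 h and overlap at 12 h.

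Among other variants and their chaperones the difference was -0.63 for CENPA, -0.62 for NASP and -0.39 for RUVBL2. For replication-coupled chaperones it was -0.69 for CHAF1A, -0.84 for CHAF1B, -1.29 for ASF1B and -0.57 for MMS22L. It was -1.05 for HELLS, -0.90 for UHRF1 and -0.56 for CASP8AP2. Among replication-dependent histone genes it was -1.78 for H2AC4, -2.10 for H2BC17, -1.96 for H2BC3 and -2.06 for H3C12. These 15 differences were negative, and over all genes 1179 were lower and 1182 higher. The related genes among the 15 were picked by small p at 24 h, and most genes so picked had fallen. They are listed here only where the difference passed. The difference uses the same 24 h libraries, so this choice favoured a negative sign. The 15 therefore cannot be weighed against the split over all genes. In the replication-coupled chaperone list 6 genes passed as lower and 1 as higher: RBBP4, a histone-binding protein singled out after its values were seen, had a difference of 0.52 (adjusted p = 0.0121).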

How the results depend on the processing

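The fall of H2AX at 24 h kept its direction and its call in 16 of 16 alternatives (-1.19 to -0.85), as did its interaction in 15 of 15 (-1.11 to -0.77) and the fall of H2AZ1 at 24 h in 16 of 16 (-0.68 to -0.24, highest adjusted p 0.0467). MACROH2A2 at 24 h kept its direction in 16 of 16 but its call in 11. H2AZ1 at 12 h was called in 5 of 16, with adjusted p = 0.00446 without the filter, 0.000498 with only the libraries compared, 0.0333 with GC offsets, and 0.0038 and 0.00359 without vehicle library A or B of 24 h. MACROH2A1 at 24 h was called with upper-quartile scaling (-0.21, adjusted p = 0.0429). The cause of these shifts was not tested.

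With a replicate block, H2AX at 24 h was -1.02 and no call of a member changed, and the interaction of H2AZ2 turned to 0.0014. The block is given although no label says that the letters pair the samples.

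The count of members called at 12 h was 1 in place of 0 with no filter, with only the libraries compared and with GC offsets, and 0 to 1 when leaving out each library. All genes called at 12 h numbered 1292, against 2503 with only the libraries compared, 2031 with GC offsets, and 493 to 2229 leaving out each library. At the interaction 2361 genes became 1190 to 3236, and 1 member became 1 to 3, leaving out each library. Between vehicle times 890 genes became 125 with only the libraries compared and 89 to 2493 leaving out each library, and 0 members became 1 with GC offsets (H3-3B, -0.21) and 0 to 4 leaving out each library. The 4 came without vehicle library A of 24 h, and were H1-10 at 0.96, H2AZ1 at -0.47, H2AZ2 at -0.30 and H2AJ at 0.64. The interaction gained H1-10 (-0.85) and H2AJ (-0.59) without that library, and H2AZ1 (-0.38) without vehicle library B of 24 h.

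Values that crossed 0 were not called in the analysis as reported. Leaving out each library gave, at 12 h, -0.20 to 0.057 for H2AX, -0.17 to 0.011 for H2AZ2 and -0.36 to 0.73 for MACROH2A2. At 24 h it gave -0.50 to 0.90 for H1-10, -0.54 to 0.23 for H2AJ, -0.14 to 0.0076 for H2AZ2 and -0.13 to 0.0196 for H3-3B, which stood at 0.0043 with GC offsets. At the interaction it gave -0.85 to 0.54 for H1-10, -0.59 to 0.18 for H2AJ, -0.38 to 0.059 for H2AZ1, -0.079 to 0.10 for H2AZ2, -0.032 to 0.22 for H3-3A, -0.049 to 0.093 for H3-3B and -0.17 to 0.0032 for MACROH2A1. H2AZ2 there stood at 0.024 with DESeq2 and with RLE scaling, at 0.022 with no filter and at 0.0202 with recovered reads. Between vehicle times it gave -0.43 to 0.96 for H1-10, -0.14 to 0.64 for H2AJ, -0.029 to 0.23 for H2AX (-0.27 with GC offsets) and -0.051 to 0.10 for MACROH2A1.

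Levels per kilobase depended on the length used: with the median coding transcript they were 666 for H2AZ1, 2060 for H3-3B, 434 for H2AZ2, 104 for MACROH2A1, 22.8 for H3-3A and 38.8 for H2AJ, and with recovered reads in the total H3-3B was 206. With 2 libraries per group and 6 to 17 reads per library, MACROH2A2 has little precision.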
